A study of Mus musculus with 64 samples.

Results

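Transcripts typical of astrocytes were measured in preparations of microglia from the mouse brain. The set consists of 9 protein-coding genes, Slc1a2, Slc1a3, Glul, Aqp4, Gja1, Gjb6, Gfap, S100b and Aldoc, which were found by symbol among the 49671 genes of the count table. The 64 libraries were made from microglia of male mice, C57BL/6 by the labels and of the N substrain and 9 to 10 weeks old by the study's methods, and each is labelled with a region (Hippocampus or Frontal cortex), a phase (Day or Night), a condition (one of Soci, Cogn, Ctr0 and Ctr1) and the number of its replicate. There are thus 16 groups of 4 libraries each, and 16 libraries for each region and phase. According to the study's methods, the animals lived under a reversed light cycle, the tissue was dissociated mechanically in the cold, and cells were enriched on a percoll step and then sorted with magnetic beads against CD11b, a surface protein of microglia and other myeloid cells. All groups share this sort, and no group carries a transgene or a deletion according to the labels. The study describes a light-phase and a dark-phase time point for these preparations. The heading of its section on microglia calls this comparison one between day and night. Day is therefore read as the light phase and Night as the dark phase. The sources used here do not explain the 4 condition names, which serve only as labels. They also do not say that the libraries of a group came from separate animals, so the p-values measure the spread between these libraries, which may be technical. Whether libraries of both regions with the same phase, condition and number share an animal is not stated either.

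Astrocytes clear glutamate from the synaptic cleft through the transporters GLT-1 (Slc1a2) and GLAST (Slc1a3), and glutamine synthetase (Glul) turns the glutamate taken up into glutamine. They form a network coupled by gap junctions of connexin 43 (Gja1) and connexin 30 (Gjb6), and they line blood vessels with endfeet rich in the water channel aquaporin 4 (Aqp4). Gfap encodes an intermediate filament, S100b a calcium-binding protein and Aldoc the aldolase C of glycolysis, all long used to label these cells. Several of the 9 genes are not restricted to astrocytes, and Glul and Slc1a3 in particular can also be transcribed by microglia. In a bulk sample, fewer cells of a type cannot be told apart from less RNA per cell.

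Total counts ran from 10.2 to 84.5 M per library with a median of 15.9 M, and the totals of 5 libraries stood apart from the rest of their group. Of all counts, 35.4% fell on the locus Gm26917 and 5.56% on Gm42418, and these counts are part of the totals. No 2 libraries held identical values. The labelled cell type was checked on 3 microglial genes. In CPM, the counts of a gene per 1000000 counts of its library, scaled between libraries by the trimmed mean of M-values (TMM), the fractalkine receptor Cx3cr1 averaged 2694 ± 461 (SD, n = 64), the purinergic receptor P2ry12 1789 ± 368 and the membrane protein Tmem119 1096 ± 278. Each of the 9 astrocyte genes was counted in every library, with at least 10 counts, and all 9 passed the filter on low counts in every comparison.

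The promoters are shown for the members that the comparisons turn on. These are Glul and Slc1a3, which moved apart from the rest, Slc1a2, the most abundant of the others, and S100b, whose level varied strongly between libraries. RefSeq start sites on the build GRCm38.p6 were matched for 8 of the 9 genes, and the 250 bases before each start were searched on both strands for the E-box CACGTG, bound by clock proteins, the NFI motif TTGGCA, the STAT site TTCNNNGAA and the GC box GGGCGG. Capitals mark a match, and the motifs do not overlap in these windows. The sequences are given in the direction of transcription, from chr1:153899679-153899928 on the plus strand for Glul, chr15:8710808-8711057 on the minus strand for Slc1a3, chr2:102706188-102706437 on the plus strand for Slc1a2 and chr10:76253586-76253835 on the plus strand for S100b.
Glul: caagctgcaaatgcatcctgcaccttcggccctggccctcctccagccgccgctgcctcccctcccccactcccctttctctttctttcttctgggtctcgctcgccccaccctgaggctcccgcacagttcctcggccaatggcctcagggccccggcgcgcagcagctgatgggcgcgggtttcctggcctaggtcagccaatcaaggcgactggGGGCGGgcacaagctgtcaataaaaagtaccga
Slc1a3: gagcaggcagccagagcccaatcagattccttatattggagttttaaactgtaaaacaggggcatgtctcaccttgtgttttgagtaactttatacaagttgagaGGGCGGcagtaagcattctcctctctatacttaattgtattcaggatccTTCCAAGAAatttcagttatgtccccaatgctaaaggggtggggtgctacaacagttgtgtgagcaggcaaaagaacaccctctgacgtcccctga
Slc1a2: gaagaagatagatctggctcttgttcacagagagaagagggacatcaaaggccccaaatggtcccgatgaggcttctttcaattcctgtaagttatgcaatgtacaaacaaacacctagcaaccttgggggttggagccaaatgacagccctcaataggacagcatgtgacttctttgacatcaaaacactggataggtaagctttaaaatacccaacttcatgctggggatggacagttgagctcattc
S100b: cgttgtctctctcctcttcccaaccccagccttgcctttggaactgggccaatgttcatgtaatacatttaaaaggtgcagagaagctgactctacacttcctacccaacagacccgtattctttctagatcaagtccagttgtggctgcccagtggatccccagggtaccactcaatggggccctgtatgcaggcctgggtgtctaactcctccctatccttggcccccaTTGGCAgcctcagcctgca
The Glul window held a GC box 33 to 28 bases before the start. The Slc1a3 window held a STAT site 96 to 88 bases before the start and a GC box 145 to 140 bases before it. The S100b window held an NFI motif 19 to 14 bases before the start. None of the 4 motifs was found in the Slc1a2 window, which lies before an internal start, since longer transcripts of this gene begin farther upstream. Among all 32851 windows of this length, 32.7% held the GC box, 12.3% the NFI motif, 7.02% the STAT site and 6.02% the E-box, which was found in none of the windows of the members. A match describes letters in these windows and not a bound site.

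Levels of different genes were compared per kilobase of exon. Glul was the most abundant member at 226 ± 41.8 CPM per kb (SD, n = 64). Slc1a2 followed at 32.3 ± 26.8, Slc1a3 at 13.6 ± 3.35 and Aldoc at 9.34 ± 8.32 CPM per kb. Below them came Gfap at 3.22 ± 2.78, S100b at 2.71 ± 2.39, Gja1 at 1.02 ± 0.619, Aqp4 at 0.917 ± 0.786 and Gjb6 at 0.828 ± 0.542 CPM per kb. Glul alone lay clear of its neighbour, since from Slc1a2 downwards the mean ± SD of each gene overlapped that of the next. The members also differed in how far they varied. The highest library held 2.64 times the Glul level and 3.23 times the Slc1a3 level of the lowest library, against 8.68 times for Gja1, 12.3 for Slc1a2, 12.8 for Gjb6, 15.3 for Aldoc, 16.9 for Aqp4, 19.9 for S100b and 42.8 for Gfap.

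**Figure D1:**
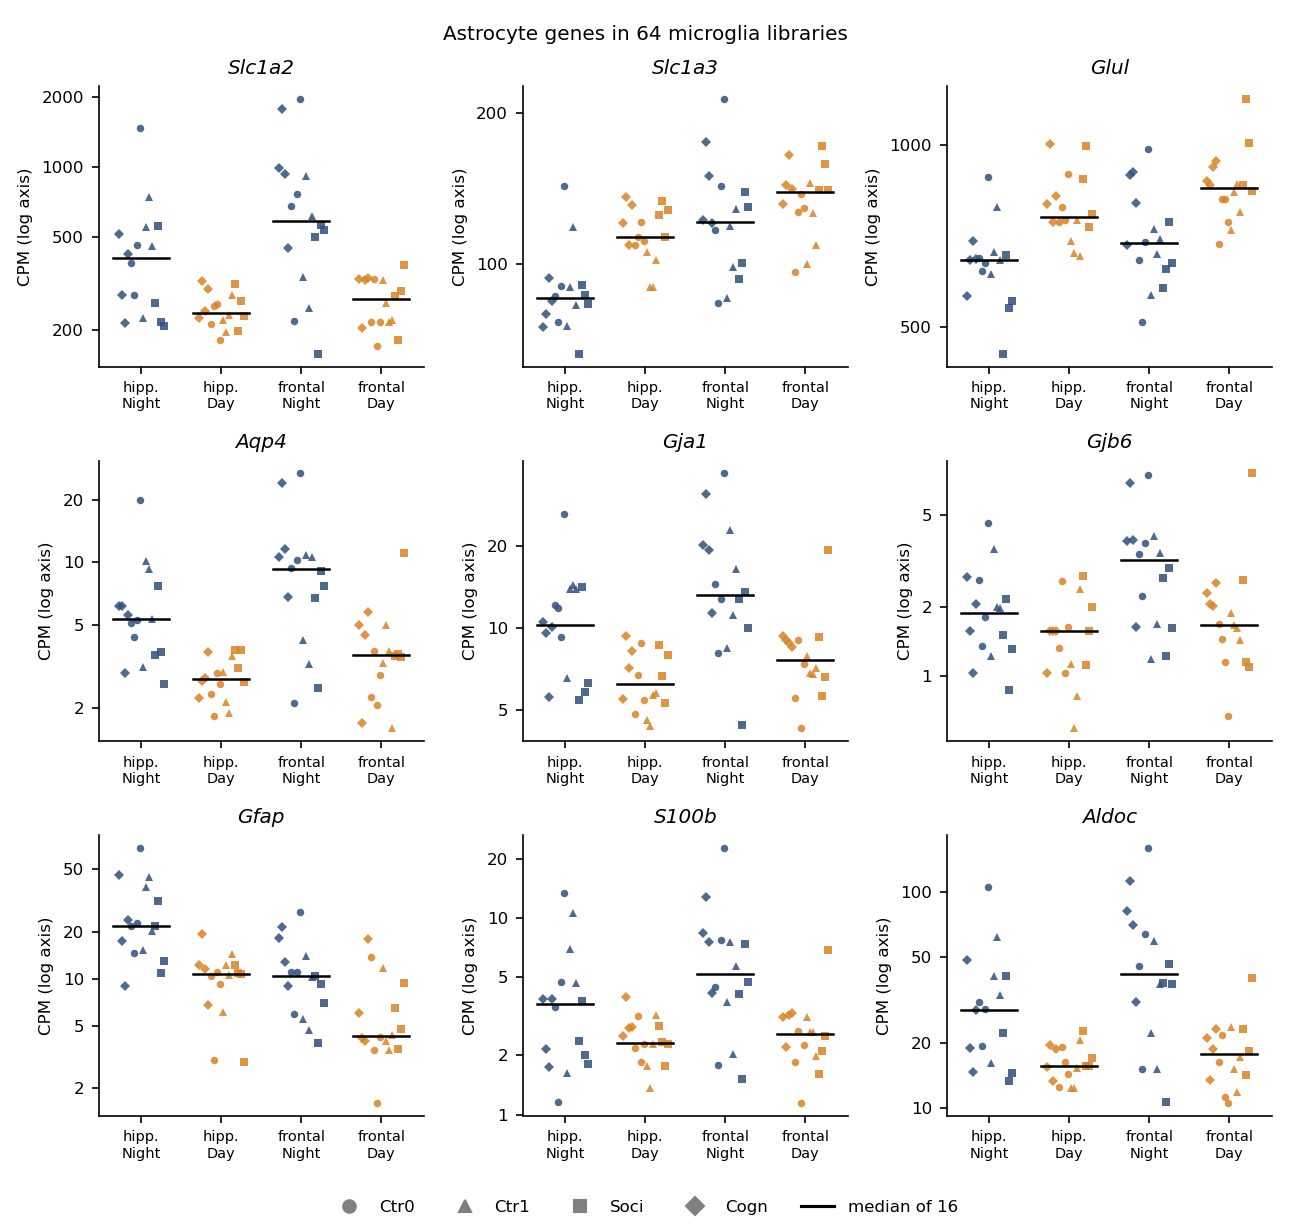
Level of each of the 9 astrocyte genes in every library, in CPM on a log axis, by region and phase (16 libraries each, points). Glul and Slc1a3 stay within a narrow band, while Slc1a2 reaches 1465 CPM in hippocampus and 1956 CPM in frontal cortex at Night and does not exceed 378.5 CPM by Day.

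The first comparison asked whether the astrocyte genes differ between Day and Night. In the hippocampus, 6 of the 9 members were lower by Day (Slc1a2, Aqp4, Gja1, Gfap, S100b and Aldoc), while Slc1a3 and Glul were higher by Day. Slc1a2, Aqp4, Gja1, Gfap, S100b and Aldoc were again lower by Day in the frontal cortex, and Glul was higher. Gjb6 did not pass the test in either region and Slc1a3 did not pass it in the frontal cortex. The test was the quasi-likelihood F test of edgeR with Benjamini-Hochberg adjustment of the p-values across every gene tested and a threshold of 0.05, with the 4 conditions pooled. Over all genes 42.2% passed in the hippocampus (23.4% higher and 18.8% lower by Day) and 41.8% in the frontal cortex (20.6% higher and 21.3% lower). Against that background, 8 and 7 of the 9 members passed. The median log2 fold change of the members was -0.77 in the hippocampus and -0.97 in the frontal cortex, and that of all genes tested was 0.02 and -0.02.

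Among the genes of glutamate uptake and recycling, the transporter gene Slc1a2 fell by Day. In the hippocampus its Night libraries held from 208 to 1465 CPM with a median of 408, and its Day libraries from 182 to 325 with a median of 237. The frontal Night libraries held from 159 to 1956 CPM with a median of 588, and the Day libraries from 171 to 378.5 with a median of 272. The groups overlapped in both regions, yet all 16 Day libraries lay below the Night median in each, and the Night libraries were spread far more widely. The log2 fold change, Day relative to Night, was -0.85 (SE 0.21, edgeR adjusted p = 0.00109) in the hippocampus and -1.46 (SE 0.26, adjusted p = 4.04e-05) in the frontal cortex.

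The second transporter gene, Slc1a3, did not follow it. Its hippocampal Night libraries held from 66.2 to 143 CPM with a median of 85.5, and its Day libraries from 90.2 to 136 with a median of 113. The frontal libraries of Slc1a3 held from 83.5 to 214 CPM (median 122) at Night and from 96.2 to 172 (median 139) by Day. None of the 16 hippocampal Day libraries lay below the Night median, and 3 of 16 did so in the frontal cortex. The log2 fold change was 0.40 (SE 0.08, edgeR adjusted p = 0.000129) in the hippocampus and 0.08 (SE 0.11, adjusted p = 0.541) in the frontal cortex. An unclassified transcript on the same strand, Gm37310, overlaps Slc1a3, and it took 5623 counts in all against 133066 for Slc1a3.

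Glul, the glutamine synthetase gene, was higher by Day in both regions. The hippocampal libraries held from 451 to 883 CPM (median 645) at Night and from 654 to 1001 (median 759) by Day. The frontal libraries held from 508 to 983 CPM (median 688) at Night and from 684 to 1191 (median 848) by Day. The groups overlapped, with 0 of 16 hippocampal and 1 of 16 frontal Day libraries below the Night median. The log2 fold change was 0.34 (SE 0.07, edgeR adjusted p = 0.000273) in the hippocampus and 0.26 (SE 0.08, adjusted p = 0.0107) in the frontal cortex. Teddm2 lies on the opposite strand and overlaps Glul, and it took 1107 counts in all.

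The gene of the endfoot water channel, Aqp4, fell by Day. Its hippocampal libraries held from 2.61 to 19.9 CPM (median 5.32) at Night and from 1.82 to 3.78 (median 2.73) by Day, and its frontal libraries from 2.09 to 26.8 (median 9.26) and from 1.59 to 11.1 (median 3.58). The groups overlapped, with 16 and 15 of the 16 Day libraries below the Night median. The log2 fold change was -1.13 (SE 0.22, edgeR adjusted p = 8.85e-05) in the hippocampus and -1.32 (SE 0.30, adjusted p = 0.000746) in the frontal cortex. Of the gap junction genes, Gja1 fell by Day, with a log2 fold change of -0.71 (SE 0.18, adjusted p = 0.00163) and -0.97 (SE 0.22, adjusted p = 0.000823). Its libraries held from 5.43 to 26.4 CPM at Night and from 4.38 to 9.37 by Day in the hippocampus, and from 4.40 to 37.1 and from 4.28 to 19.4 in the frontal cortex. Gjb6, the least abundant member, had values on the same side that did not pass, at -0.37 (SE 0.21, adjusted p = 0.164) and -0.67 (SE 0.28, adjusted p = 0.0524). Its Night libraries held from 0.873 to 4.62 CPM in the hippocampus and from 1.18 to 7.45 in the frontal cortex, and its Day libraries from 0.592 to 2.704 and from 0.669 to 7.57, with as few as 10 counts in a library.

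The 3 classical label genes fell by Day in both regions. Gfap, the intermediate filament gene, held from 8.98 to 68.6 CPM (median 21.8) at Night and from 2.94 to 19.2 (median 10.8) by Day in the hippocampus, where its log2 fold change of -1.34 (SE 0.25, edgeR adjusted p = 6.69e-05) was the lowest among the members. Frontal libraries of Gfap held from 3.86 to 26.6 CPM (median 10.3) and from 1.60 to 17.8 (median 4.31), a log2 fold change of -0.82 (SE 0.28, adjusted p = 0.0203). Aldoc, of glycolysis, had hippocampal medians of 28.6 CPM at Night and 15.6 by Day, and frontal medians of 41.8 and 17.8, with all 16 Day libraries below the Night median in each region. Its log2 fold change was -1.02 (SE 0.22, adjusted p = 0.000408) and -1.52 (SE 0.29, adjusted p = 9.88e-05). S100b had hippocampal medians of 3.67 and 2.33 CPM and frontal medians of 5.20 and 2.58, with 15 of 16 Day libraries below the Night median in each region. Its log2 fold change was -0.77 (SE 0.27, adjusted p = 0.0214) and -1.30 (SE 0.29, adjusted p = 0.000677). S100b lies opposite Dip2a, which took 51336 counts against 4643 for S100b. The strand setting of the counting is not given in the sources used here, so it is not known whether reads of the 2 genes were kept apart. Dip2a had medians of 49.7 CPM at Night and 37.7 by Day in the hippocampus and of 44.8 and 33.4 in the frontal cortex, lower by Day like S100b. With group means removed, the 2 genes correlated at r = 0.15 over 64 libraries.

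**Figure D2:**
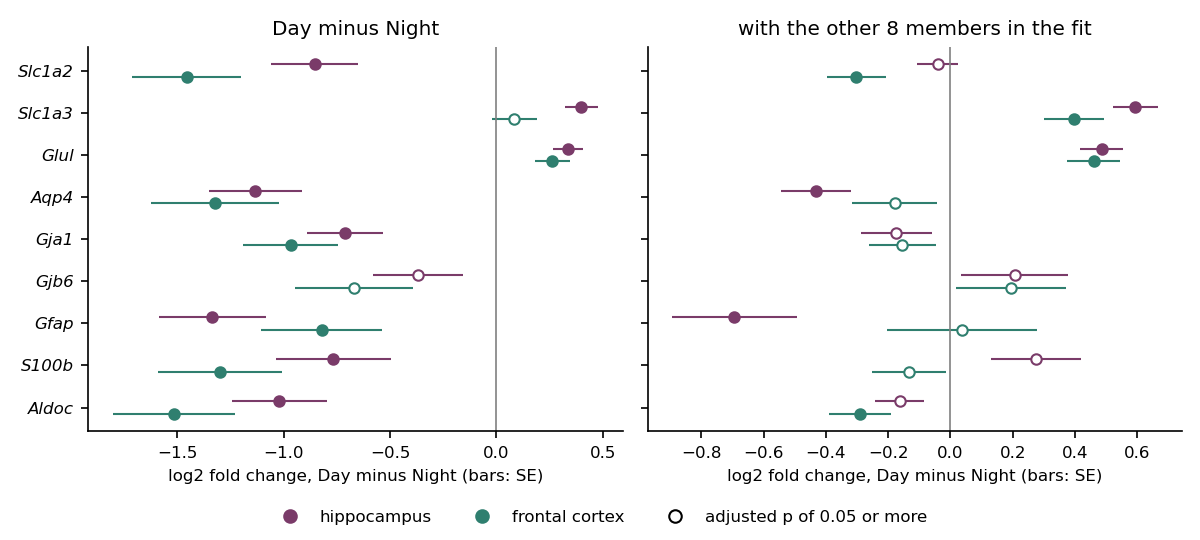
Log2 fold change of the 9 astrocyte genes, Day relative to Night, in hippocampus and frontal cortex (points, with SE as bars, and open points where the adjusted p was 0.05 or more). On the left, Slc1a3 and Glul sit to the right of 0, at 0.40 and 0.34 in the hippocampus, with Gfap at -1.34. On the right, where the mean of the other 8 members is in the fit, Slc1a3 and Glul lie at 0.59 and 0.49 in the hippocampus and at 0.40 and 0.46 in the frontal cortex.

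These calls depended on a few choices. The falls of Slc1a2, Aqp4 and Aldoc passed under all 15 alternatives tried in each region. Scaling by library totals alone moved the median log2 fold change of all genes to -0.14 in the hippocampus and -0.09 in the frontal cortex, so that 6.1% and 16.1% of the calls over all genes were higher by Day, against 55.5% and 49.2% with TMM. Under that scaling the rises stood at 0.26 for Slc1a3 (adjusted p = 0.074) and 0.19 for Glul (adjusted p = 0.146) in the hippocampus and at 0.20 for Glul (adjusted p = 0.13) in the frontal cortex. All 3 values lay above the median of all genes under that scaling. Leaving out 1 replicate number ended the call of S100b in the hippocampus (adjusted p = 0.061 without number 3 and 0.090 without number 4), and in the frontal cortex that of Gfap (0.134 without number 2 and 0.105 without number 3) and of Glul (0.074 without number 2). Frontal Gjb6 passed in 5 of 15 alternatives, among them the replicate block (-0.71, adjusted p = 0.0436) and DESeq2 (-0.67, adjusted p = 0.0379).

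The same contrast was tested between regions. None of the 9 day-night changes differed between hippocampus and frontal cortex past the threshold (edgeR, 0 of 9, with 1 at an unadjusted p under 0.05, against 1.19% of all genes called). The member closest to it was Slc1a3, whose change was 0.27 higher in the hippocampus on the log2 scale (SE 0.13, adjusted p = 0.479). The adjusted p of the others ran from 0.622 to 0.957.

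Whether the 9 genes changed in proportion, as the transcripts of a cell share do, was examined first through the log2 CPM of each gene minus the mean of the other 8 in the same library, in which a common change cancels. The 9 differences of a library sum to 0, so that some must be positive where others are negative. Relative to the other 8, Slc1a3 was higher by Day by 1.00 (SE 0.14) in the hippocampus and 0.96 (SE 0.18) in the frontal cortex, and Glul by 0.92 (SE 0.14) and 1.14 (SE 0.20). In 2-sided permutation tests with 100000 resamples, p was 1e-05 for both genes in the hippocampus, 2e-05 for Slc1a3 and 1e-05 for Glul in the frontal cortex, with 1e-05 the smallest value possible. These are 4 of 18 such tests, and the p-values are not adjusted.

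The remaining members differed from one another as well. Gfap fell further than the other 8 in the hippocampus, by -0.87 (SE 0.21, permutation p = 2e-05), but not past the test in the frontal cortex at -0.17 (p = 0.409). In the same permutation test Aqp4 stood at -0.53 (p = 2e-05) and -0.47 (p = 0.00295), Aldoc at -0.35 (p = 0.00033) and -0.56 (p = 9e-05), and Slc1a2 at -0.20 (p = 0.00526) and -0.49 (p = 3e-05). Gja1 and Gjb6 did not pass in either region, with p from 0.114 to 0.574. S100b did not pass in the hippocampus at 0.02 (permutation p = 0.918) and did in the frontal cortex at -0.36 (p = 0.00463). With the median of the other 8 in place of their mean, some hippocampal values changed sign. Slc1a2 turned to 0.28 (permutation p = 0.00947), Gja1 to 0.40 (permutation p = 0.0174) and Aldoc to 0.14 (permutation p = 0.244). Aqp4 no longer passed the permutation test against that median, at -0.014 in the hippocampus and -0.20 in the frontal cortex. Frontal S100b did not pass it either, at -0.10. Hippocampal S100b at 0.47 and Gjb6 at 0.61 then passed it, as did frontal Gjb6 at 0.29. The sign or the call of these differences thus rests on the reference. Slc1a3 and Glul in both regions, hippocampal Gfap, and frontal Slc1a2 and Aldoc kept their sign and passed.

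As Slc1a3 and Glul themselves raise the mean by Day, the differences were also taken against the other 7 members, a choice made after these values were seen and therefore not tested. Slc1a3 then stood at 1.13 (SE 0.16) in the hippocampus and 1.11 (SE 0.20) in the frontal cortex, and Glul at 1.06 (SE 0.16) and 1.27 (SE 0.22). Of 16 Day libraries, 11 and 5 lay above every Night library for Slc1a3 and 9 and 7 for Glul. The 7 others lay between -0.62 (Gfap) and 0.47 (Gjb6) in the hippocampus, and between -0.27 (Aldoc) and 0.40 (Gjb6) in the frontal cortex.

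The second way put the mean centred log2 CPM of the other 8 members into the edgeR fit as a covariate, with 1 fit for each member. In the hippocampus Slc1a3 was higher by Day by 0.59 (SE 0.07, adjusted p = 4.02e-07) and Glul by 0.49 (SE 0.07, adjusted p = 4.23e-06), while Aqp4 at -0.43 (SE 0.11, adjusted p = 0.00306) and Gfap at -0.69 (SE 0.20, adjusted p = 0.00717) were lower. Among the frontal libraries Slc1a3 was higher by 0.40 (SE 0.10, adjusted p = 0.00355) and Glul by 0.46 (SE 0.08, adjusted p = 0.00022), and Slc1a2 at -0.30 (SE 0.10, adjusted p = 0.0197) and Aldoc at -0.29 (SE 0.10, adjusted p = 0.0287) were lower. Slc1a2, whose fall by Day was -0.85 in the hippocampus, stood at -0.04 (SE 0.07) there once the other members were in the fit. In the hippocampal fits the share of all genes that passed was 27.9% for Slc1a3, 28.3% for Glul, 31.7% for Aqp4 and 33% for Gfap, and in the frontal fits 22.5% for Slc1a3, 22.3% for Glul, 26% for Slc1a2 and 25.8% for Aldoc. Glul passed in both regions, and Slc1a3 in the hippocampus, under all 7 alternatives. The frontal call of Slc1a2 passed in 4 of 7 and that of Aldoc in 3 of 7.

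The proportions between the members moved accordingly. Of the summed CPM per kb of the 9 genes, Glul made up 75.5% ± 7.14 (SD, n = 16) at Night and 84.6% ± 1.78 by Day in the hippocampus, and 70.9% ± 9.25 and 84.4% ± 2.69 in the frontal cortex. The share of Slc1a2 was 12.4% ± 4.46 and 6.72% ± 1.11 in the hippocampus and 16.2% ± 6.40 and 6.73% ± 1.56 in the frontal cortex. For Glul and Slc1a2 the shares thus varied less among Day than among Night libraries, whereas in the frontal cortex the SD of the Gfap share was 0.369 by Day and 0.240 at Night.

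**Figure D3:**
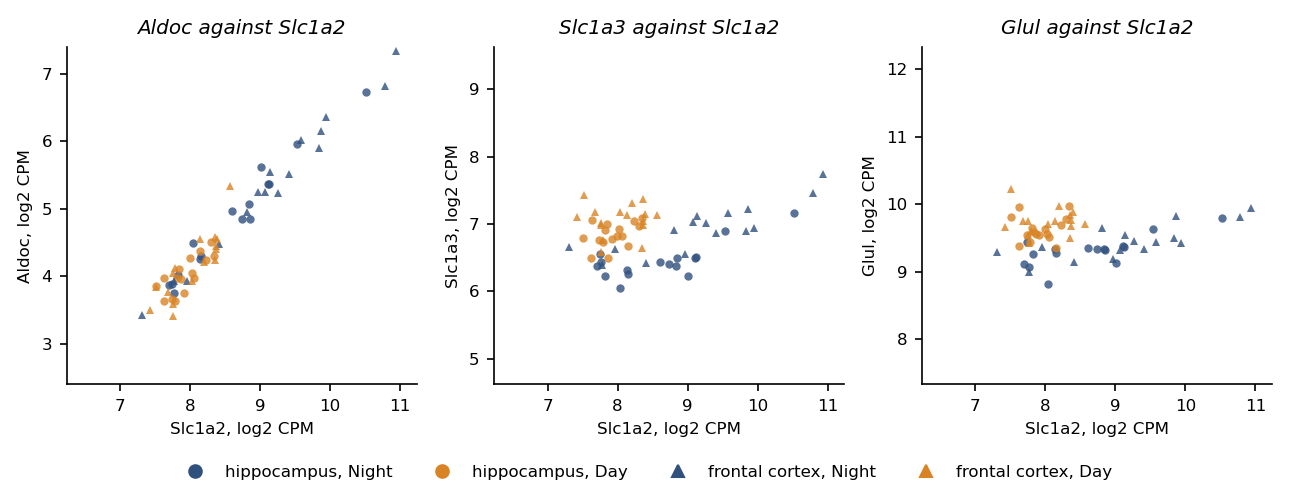
Log2 CPM of Aldoc, Slc1a3 and Glul against that of Slc1a2 in the 64 libraries (points), by region and phase. Aldoc rises with Slc1a2 along 1 line for Day and Night, while Glul and Slc1a3 climb only slightly with it and most Day libraries lie above Night libraries of a similar Slc1a2 level, with exceptions in both regions.

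Libraries of the same group also differed in these transcripts. To describe this, log2 CPM was centred on the mean of each of the 16 groups, and Pearson correlations were taken over the 64 libraries, which share their region's preparation and scaling. Among Slc1a2, Aqp4, Gja1, Gjb6, Gfap, S100b and Aldoc the 21 pairs had a median r of 0.79, from 0.54 to 0.97. Glul and Slc1a3 had an r of 0.84 with each other, but from 0.19 to 0.66 (median 0.49) with those 7 genes. Without the 2 libraries farthest from the rest, which are the Night Ctr0 libraries with replicate number 4 of both regions, the 7 genes had a median r of 0.75 (from 0.49 to 0.96), Glul and Slc1a3 an r of 0.79, and the pairs between the sets from 0.02 to 0.57 (median 0.34). The division of the members into these sets was made after the values were seen.

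Members that change in proportion have a slope near 1 on one another. Per unit of the mean log2 CPM of the other 8, S100b rose by 1.45, Aldoc by 1.41, Aqp4 by 1.33, Slc1a2 by 1.26, Gfap by 1.06, Gjb6 by 0.95 and Gja1 by 0.90. Slc1a3 rose by 0.27 and Glul by 0.16. Without the 2 libraries farthest from the rest, the slopes were 0.20 for Slc1a3, 0.10 for Glul and 0.90 to 1.42 for the others. For each of the other genes, the mean includes Slc1a3 and Glul, which moved little. Both narrow its spread and so raise these slopes, and a value above 1 need not be a departure from proportion. The correlations with that mean were 0.95 for Slc1a2 and for Aldoc, 0.91 for S100b, 0.89 for Aqp4, 0.87 for Gja1, 0.76 for Gjb6, 0.66 for Gfap, 0.59 for Slc1a3 and 0.47 for Glul. Without those 2 libraries they were 0.46 for Slc1a3, 0.31 for Glul and from 0.60 (Gfap) to 0.94 (Slc1a2) for the others. The 2 genes with the shallowest slopes are those with the least spread within groups, an SD of 0.25 for Slc1a3 and 0.19 for Glul in log2 CPM, against 0.54 to 0.82 for the others.

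**Figure D4:**
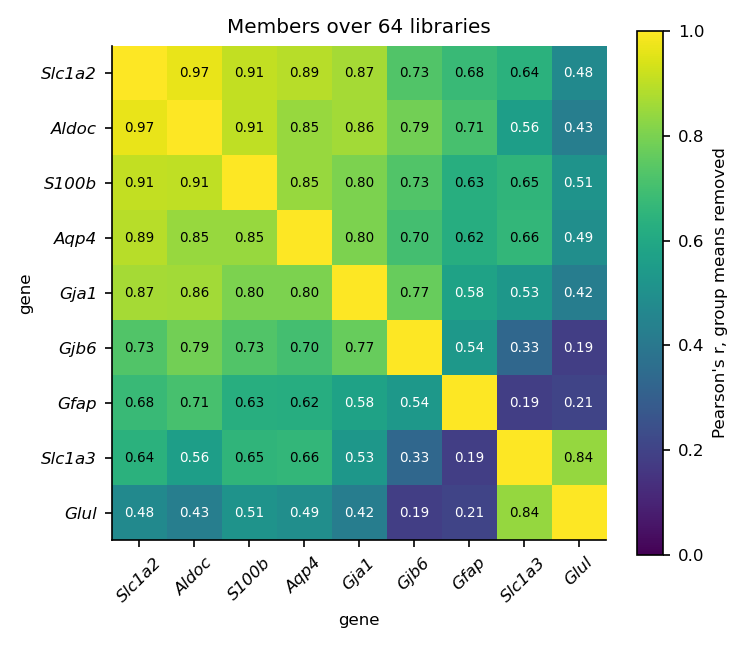
Pearson's r between each pair of the 9 genes over 64 libraries, in log2 CPM with group means removed (rows and columns are genes, colour runs from 0 to 1 and the value stands in each cell). Slc1a2 to Gfap form a block with a median r of 0.79, and the last rows, Slc1a3 and Glul, reach 0.84 with each other but 0.66 at most with that block.

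The genes outside the set whose within-group pattern was most like the mean of the members were ranked among 10919 genes whose average log2 CPM was 2 or more. They were Cpe (r = 0.98), which encodes carboxypeptidase E, Ptprz1 (0.97), a receptor phosphatase of glia, Gpm6b (0.97), a proteolipid of glia and neurons, Ndrg2 (0.96), Paqr8 (0.96), Asrgl1 (0.96), Mlc1 (0.96), a membrane protein of astrocyte endfeet, Gpr37l1 (0.95), a receptor of astrocytes, Sfxn5 (0.95) and Selenow (0.94). For all 10 the r with Slc1a2 was higher than the r with Slc1a3 or Glul. This order follows from the ranking, since the mean itself followed Slc1a2 more closely than Slc1a3 or Glul. It is therefore no separate result on how the members divide. The genes most like Glul were Smim13 and Slc1a3 (both 0.84), and those most like Slc1a3 were Psat1 (0.86), of serine synthesis, and Glul, which were looked up after the values were seen. Between the libraries of both regions with the same phase, condition and number, centred values correlated at 0.52 for Glul and 0.46 for Slc1a3 over 32 pairs, and from -0.09 (Gfap) to 0.27 for the other 7.

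Of 34 other genes enriched in astrocytes, 32 were tested in the hippocampus and 33 in the frontal cortex. By Day, 26 were lower and 1 higher in the hippocampus, with a median log2 fold change of -0.81, and 30 were lower and 1 higher in the frontal cortex, with a median of -0.92. Over all genes, 18.8% were lower and 23.4% higher in the hippocampus, and 21.3% and 20.6% in the frontal cortex. The 3 with the lowest p in the hippocampus were Slc7a10, an amino acid transporter gene, at -2.28 (SE 0.20, edgeR adjusted p = 2.65e-10), Sox9, a transcription factor gene of astrocytes, at -1.60 (SE 0.16, adjusted p = 3.46e-09), and Slc13a3, which encodes a dicarboxylate transporter, at 0.74 (SE 0.08, adjusted p = 1.73e-08). The frontal genes were Grm3, a glutamate receptor gene, at -1.45 (SE 0.23, adjusted p = 8.5e-06), Slc13a3 at 0.62 (SE 0.10, adjusted p = 2.28e-05) and Gldc, of glycine cleavage, at -1.39 (SE 0.24, adjusted p = 2.54e-05). Slc13a3 was the 1 gene of this list that rose in each region. The mean centred log2 CPM of the list correlated with the mean of the members at r = 0.96 within groups, with Glul at 0.38 and with Slc1a3 at 0.49.

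The markers of other cell types were counted in the same comparison, in which 18.8% of all genes were lower by Day in the hippocampus and 21.3% in the frontal cortex, and their part in the day-night changes was not tested, except for the microglial markers below. Neuronal genes were lower by Day in 3 of 12 cases in the hippocampus and in 10 of 12 in the frontal cortex, with summed levels from 107 to 432 CPM at Night and from 87.3 to 313 by Day in the hippocampus, and from 124 to 468 and from 87.9 to 258 in the frontal cortex. Oligodendrocyte genes were lower in 8 and 5 of 10, endothelial genes in 5 and 1 of 10, choroid plexus genes in 10 of 10 and 0 of 5, and ependymal genes in 4 of 5 and 2 of 2. The oligodendrocyte list summed to 165 to 512 CPM at Night and 123 to 218 by Day in the hippocampus, and to 136 to 408 and 109 to 277 in the frontal cortex. The endothelial list summed to 651 to 1825 and 354 to 1184 in the hippocampus, and to 265 to 2275 and 357 to 1121 in the frontal cortex. Both lists overlapped between Day and Night. The ependymal list reached 45.7 CPM at most, at Night in the hippocampus, and 5 of its 8 genes were at 0 in some library. The choroid plexus list ran from 30.0 to 5162 CPM at Night and from 7.88 to 1522 by Day in the hippocampus, and from 22.5 to 594 and from 16.2 to 686 in the frontal cortex, and 6 of its 10 genes were at 0 in some library, Otx2 in 8 libraries. Macrophages of the brain's borders had 8 of 8 and 7 of 8 markers higher by Day, against 23.4% and 20.6% of all genes. The sums of these markers ran from 687 to 1094 CPM at Night and from 924 to 1519 by Day in the hippocampus. In the frontal cortex they ran from 731 to 1233 and from 978 to 1598. Within groups, the mean of the members correlated at 0.70 with the oligodendrocyte list, 0.56 with the neuronal list, 0.33 with the endothelial list, -0.20 with the choroid plexus list and -0.20 with the microglial list. The last 3 differed by region. In the hippocampus they stood at 0.06, -0.45 and 0.02, and in the frontal cortex at 0.49, 0.08 and -0.32. Without the 2 libraries farthest from the rest, the choroid plexus value over both regions was -0.03 and the microglial value -0.33.

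Of 12 microglial genes, 8 rose by Day in the hippocampus and 5 in the frontal cortex, against 23.4% and 20.6% of all genes, and none of the 12 was called lower. Their summed level ran from 12650 to 18157 CPM at Night and from 15433 to 21563 by Day in the hippocampus, and from 12325 to 21828 and from 16137 to 25507 in the frontal cortex. Glul correlated with this list within groups at r = 0.51 and Slc1a3 at 0.27, whereas the 7 other members lay between -0.38 (Gjb6) and -0.09 (S100b). The regions differed in this. In the hippocampus the 7 lay between -0.16 (Gjb6) and 0.10 (Gfap), with Glul at 0.62 and Slc1a3 at 0.34. In the frontal cortex they lay between -0.51 (Gjb6) and -0.18 (S100b), with Glul at 0.44 and Slc1a3 at 0.23. With the microglial markers as a covariate in the edgeR fit, Slc1a2, Aqp4, Aldoc and S100b stayed lower by Day in both regions, but the Day rise of Glul stood at 0.20 (adjusted p = 0.0696) in the hippocampus and 0.19 (adjusted p = 0.149) in the frontal cortex. Of the members in the frontal cortex 4 passed in that fit, with Gfap at -0.36 (adjusted p = 0.389) and Gja1 at -0.58 (adjusted p = 0.0742). The share of all genes that passed in that fit was not counted, so the 4 cannot be set against it.

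Between the regions, averaged over Day and Night, 5 of the 9 members differed (edgeR, 64 libraries), against 16.6% of all genes (10.4% higher and 6.17% lower in the hippocampus). This fit treats the libraries of both regions as independent. With the phase, condition and number that 2 libraries share as a block, 6 members were called, Glul among them at -0.13 (adjusted p = 0.0212). The share of all genes called with that block was not counted. Gfap was the 1 member that was higher in the hippocampus, where its libraries held from 2.94 to 68.6 CPM with a median of 12.7, against 1.60 to 26.6 with a median of 6.75 in the frontal cortex. The log2 fold change of Gfap, hippocampus relative to frontal cortex, was 0.93 (SE 0.19, adjusted p = 0.000249). Slc1a3 was lower in the hippocampus, from 66.2 to 143 CPM with a median of 97.8 against 83.5 to 214 with a median of 129.7, a log2 fold change of -0.37 (SE 0.07, adjusted p = 2.84e-05). The ranges overlapped for both genes, and both calls passed under all 15 alternatives.

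Aqp4 at -0.56 (SE 0.19, edgeR adjusted p = 0.0328), Gjb6 at -0.56 (SE 0.18, adjusted p = 0.0229) and Gja1 at -0.43 (SE 0.15, adjusted p = 0.0308) were lower in the hippocampus. Slc1a2 at -0.40, Aldoc at -0.43, S100b at -0.39 and Glul at -0.13 did not pass, with adjusted p from 0.0811 to 0.186. Leaving out any 1 replicate number ended the calls of Aqp4 (adjusted p from 0.066 to 0.108) and Gja1 (0.054 to 0.106), and leaving out number 2 or 3 that of Gjb6 (0.064 and 0.115). The number of members called was 8 without the hippocampal and 3 without the frontal Night Ctr0 library of replicate number 4, and 9 with library totals alone, which moved the median of all genes to -0.11. With totals alone, 854 of all 16069 genes were called higher and 1685 lower in the hippocampus. The shares of all genes called without either library were not counted. The choroid plexus list was higher in the hippocampus for 10 of 10 genes, with a median log2 fold change of 2.89, and its part in these values was not tested.

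Across the 4 conditions no member passed. In the overall test of Soci, Cogn, Ctr0 and Ctr1, averaged over the phases, edgeR called 0 of 9 in each region, with 0 in the hippocampus and 1 in the frontal cortex at an unadjusted p under 0.05, and 0% of all genes passed in either region. Of the 54 tests between pairs of conditions in each region none passed, and 0 and 3 had an unadjusted p under 0.05, against 0.0119% of all genes called for Soci against Ctr1 and 0.00594% for Cogn against Ctr1 in the hippocampus and 0% for the other pairs. The 3 were higher levels in Cogn in the frontal cortex, of Glul against Ctr0 (0.25) and Ctr1 (0.26) and of Slc1a3 against Ctr1 (0.36 on the log2 scale). The log2 differences between conditions ran from -0.65 to 0.35 in the hippocampus and from -0.73 to 0.68 in the frontal cortex.

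By group, the mean of Slc1a2 at Night was 311 ± 166 CPM (SD, n = 4) in Soci, 359 ± 137 in Cogn, 650.0 ± 548 in Ctr0 and 494 ± 214 in Ctr1 in the hippocampus. By Day the hippocampal means lay between 227 ± 36.7 (Ctr0) and 273 ± 47.2 (Cogn). In the frontal cortex the Night means were 439.7 ± 189 in Soci, 1032 ± 544 in Cogn, 904 ± 741 in Ctr0 and 529 ± 300.1 in Ctr1, and the Day means lay between 234 ± 67.8 (Ctr0) and 299.6 ± 63.2 (Cogn). For Slc1a2 the SD of every Night group was thus larger than that of every Day group. Glul had its lowest mean in hippocampal Night Soci, at 549 ± 84.6 CPM, and its highest in frontal Day Soci, at 973 ± 163, and Slc1a3 had the same lowest and highest groups, at 81.7 ± 10.8 and 153 ± 15.3. Aqp4 (2.42 ± 0.478 CPM) had its lowest mean in hippocampal Day Ctr0, and Gja1 (5.10 ± 0.722) and Gjb6 (1.23 ± 0.804) theirs in hippocampal Day Ctr1. Gfap (5.79 ± 5.45), Aldoc (14.96 ± 5.21) and S100b (1.98 ± 0.652) had their lowest mean in frontal Day Ctr0. The highest means were those of frontal Night Cogn for Slc1a2, Aqp4 (13.2 ± 7.46), Gja1 (20.5 ± 8.17) and Aldoc (74.0 ± 33.8), of frontal Night Ctr0 for S100b (9.19 ± 9.37) and Gjb6 (4.21 ± 2.25), and of hippocampal Night Ctr0 for Gfap (31.9 ± 24.7).

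The day-night change was also tested within each condition, with 4 against 4 libraries. In Soci, Glul rose by Day in both regions, by 0.65 (SE 0.13, edgeR adjusted p = 0.00365) in the hippocampus and 0.61 (SE 0.14, adjusted p = 0.00988) in the frontal cortex, and Slc1a3 rose in the hippocampus by 0.64 (SE 0.15, adjusted p = 0.00862). There, 2 of 9 and 1 of 9 members passed, against 8.08% and 6.51% of all genes. In Cogn, Slc1a3 rose in the hippocampus by 0.61 (SE 0.15, adjusted p = 0.0162), the 1 call against 5.32% of all genes. In the frontal cortex Slc1a2 fell in Cogn by 1.81 on the log2 scale (SE 0.48, adjusted p = 0.0261) and Aldoc by 1.98 (SE 0.53, adjusted p = 0.0264), the 2 calls against 5.86% of all genes. In Ctr1, Aqp4 at -1.36 (SE 0.43, adjusted p = 0.0356) and Gja1 at -1.21 (SE 0.33, adjusted p = 0.0172) were lower by Day in the hippocampus (12.5% of all genes called), and none passed in the frontal cortex (0 of 9, with 2 at an unadjusted p under 0.05 and 4.35% of all genes called).

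Ctr0 was the condition with the most calls. In the hippocampus 5 of 9 passed (13.2% of all genes), Gfap at -1.89, Aqp4 at -1.81, Aldoc at -1.54, Slc1a2 at -1.48 and Gja1 at -1.17. In the frontal cortex 6 of 9 passed (5.47% of all genes), Aldoc at -2.26, S100b at -2.20, Aqp4 at -2.16, Slc1a2 at -1.97, Gjb6 at -1.76 and Gja1 at -1.48. The medians over the 9 members were -0.11 in Soci, -0.32 in Cogn, -1.25 in Ctr0 and -1.21 in Ctr1 in the hippocampus, and -0.21, -1.23, -1.76 and -0.87 in the frontal cortex. The difference of these changes among the 4 conditions was itself tested, and edgeR called 0 of 9 in each region (3 in the hippocampus and 1 in the frontal cortex at an unadjusted p under 0.05, with 0% and 0.00616% of all genes called). On simulated hippocampal libraries where Day levels changed 2-fold in Soci alone for 200 genes, the same test recovered 1. The simulation gave every gene the same dispersion, whereas the SD of the members within groups ran from 0.19 (Glul) to 0.82 (Gfap) in log2 CPM. At the simulated dispersion the test could hardly detect such a difference. Its power for single members was not examined, and 0 calls do not show that the conditions were alike.

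**Figure D5:**
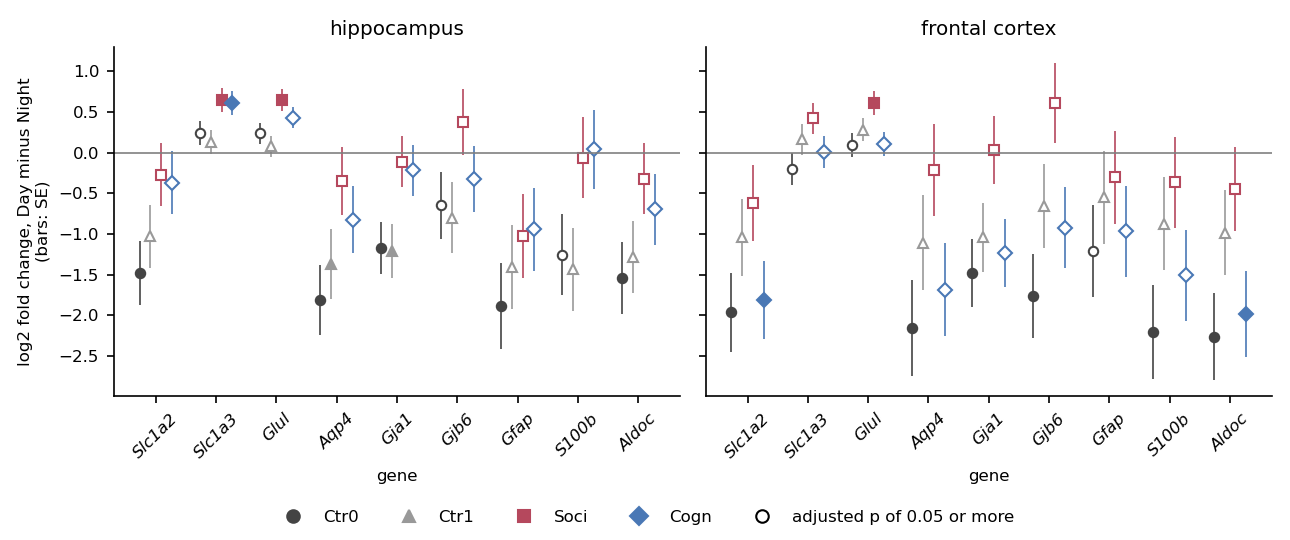
Log2 fold change of the 9 genes, Day relative to Night, within each of the 4 conditions in hippocampus and frontal cortex (points with SE as bars, 4 against 4 libraries, open where the adjusted p was 0.05 or more). The Ctr0 points lie lowest for all 9 genes in the frontal cortex, with Aldoc at -2.26, and for 4 of 9 in the hippocampus, with Gfap at -1.89 (Ctr1 lies lowest for the other 5), while Slc1a3 and Glul lie near or above 0 in most conditions.

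The Ctr0 calls rested on 1 library in each region, both with replicate number 4. The hippocampal Night Ctr0 libraries held 389, 284, 461 and 1465 CPM of Slc1a2 and 31.1, 19.5, 28.6 and 106 CPM of Aldoc, and the frontal ones 679.9, 218, 764 and 1956 CPM of Slc1a2 and 45.7, 15.1, 64.3 and 161 CPM of Aldoc. In both regions the fourth library was the highest Night library for all 9 members, Glul (883 and 983 CPM) and Slc1a3 (143 and 214 CPM) included. Without it, the hippocampal Ctr0 changes were -0.67 for Slc1a2 (edgeR adjusted p = 0.163), -0.96 for Aqp4 (adjusted p = 0.0674), -1.16 for Gfap, -0.70 for Aldoc and -0.72 for Gja1, none past the threshold, while Slc1a3 at 0.49 (adjusted p = 0.0129) and Glul at 0.39 (adjusted p = 0.0402) then passed as higher by Day. In the frontal cortex none of the 9 passed without it, with Slc1a2 at -1.26 (adjusted p = 0.149) and Aldoc at -1.48 (adjusted p = 0.126). The day-night comparison over all conditions called 7 members in each region without that library, and in the hippocampus S100b then stood at -0.53 (adjusted p = 0.0704). The shares of all genes called in these fits without that library were not counted.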

How the data were processed

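RNA was depleted of ribosomal RNA and sequenced single-end from 64 libraries of sorted microglia. The authors aligned the reads to GRCm38.p5 with STAR 2.7.3a and counted them per gene with featureCounts (Subread 2.0.0), and they deposited raw counts. The strand setting is not given in the sources used here. From these counts, R 4.3.3 with edgeR 4.0.16 gave TMM scaling, a filter on low counts (filterByExpr) and quasi-likelihood F tests, separately for each region and over all 64 libraries for comparisons between regions, with Benjamini-Hochberg adjustment over all genes tested and a threshold of 0.05. CPM were the TMM-scaled values, and log2 CPM carried a prior count of 2. Exon lengths came from GENCODE M21. Differences of a member from the other 8 were tested by a 2-sided permutation test with 100000 resamples. DESeq2 1.42.0, other scalings and filters, a replicate block, covariates and left-out libraries were alternatives, and the fits were tested on simulated data. Total counts of 10.2 to 84.5 M leave the precision of the scarcest members limited by counts as low as 10 per library, and no other interval was computed for single libraries.

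The named genes were the 9 members, the 3 of the other astrocyte list with the lowest p past the threshold in each region, the 10 genes of an average log2 CPM of at least 2 that correlated best with the mean of the members, and 3 microglial genes. The members and lists were chosen with earlier results of these data known. The fits without the Night Ctr0 libraries of replicate number 4 were added after the data were seen. RefSeq promoter windows on GRCm38.p6 gave the sequences.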

Additional observations from a re-analysis of the deposited data

Results flagged for a closer look

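Within the groups of 4 libraries, 17 of 144 combinations of gene and group held a library far from the other 3 by Dixon's test at its 95% critical value, where chance gives about 7.2. They came from 10 libraries. The Night Ctr0 library of replicate number 4 in the hippocampus stood high for 6 genes, with 1465 CPM of Slc1a2 (the others 284 to 461), 19.9 of Aqp4 (4.38 to 5.29), 68.6 of Gfap (14.5 to 22.8), 106 of Aldoc (19.5 to 31.1), 26.4 of Gja1 (9.31 to 12.2) and 883 of Glul (619 to 649). The Night Soci library of replicate number 2 stood high in the hippocampus for Slc1a2 (558 CPM against 208 to 263) and Gja1 (14.2 against 5.43 to 6.27) and low in the frontal cortex for Slc1a2 (159 against 500.5 to 562). Among frontal Day libraries, Cogn replicate 2 was low for Slc1a2 (205 CPM against 328 to 336) and S100b (2.21 against 3.13 to 3.31), Cogn replicate 4 was high for Gfap (17.8 against 3.98 to 6.05), Ctr1 replicate 1 was high for Gfap (11.6 against 3.51 to 4.36) and Soci replicate 4 was high for Aqp4 (11.1 against 3.48 to 3.63). In the hippocampus, Day Soci replicate 4 was low for Gfap (2.94 CPM against 10.8 to 12.2), Night Ctr1 replicate 1 was low for Gja1 (6.54 against 13.9 to 14.5) and Day Cogn replicate 1 was low for Gjb6 (1.03 against 1.57 in each of the others).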

How the results depend on the processing

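Counts of members called stayed within 1.5 times their reported value in 132 of 144 alternative values. With library totals alone, 1 member was called across the 4 conditions in the hippocampus, 9 between the regions, and 2 by phase in the frontal cortex with the other 8 members in the fit. With the microglial markers as a covariate, 4 were called by phase in the frontal cortex. Between the regions 8 were called without the hippocampal Night Ctr0 replicate 4 and 3 without the frontal one. Leaving out each replicate number in turn gave 7 to 8 calls by phase in the hippocampus and 5 to 8 in the frontal cortex, 2 to 3 between the regions, and 3 to 4 and 2 to 3 with the other 8 members in the fit. The causes were not tested. Except between the regions with library totals alone, the shares of all genes called beside these counts were not counted.

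Of single values, 17 of 828 changed sign. Against the median of the other 8, Slc1a2 (0.28), Aldoc (0.14) and Gja1 (0.40) turned in the hippocampus and Gfap (0.16) and Gja1 (0.18) in the frontal cortex. With the other 8 in the fit, frontal Gfap turned to -0.17 with totals alone and -0.072 with the replicate block, and ran from -0.19 to 0.23 without 1 replicate number, as did Gjb6 from -0.18 to 0.52. Against the mean of the other 8, leaving out a number gave -0.13 to 0.15 for S100b in the hippocampus, and -0.35 to 0.0012 for Gfap and -0.020 to 0.21 for Gjb6 in the frontal cortex. In the day-night change between regions, Aqp4 stood at -0.017 without the frontal and 0.39 without the hippocampal Night Ctr0 replicate 4, and Glul at -0.0061 with totals alone and from -0.0043 to 0.080 without a replicate.

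The replicate numbers were not taken to pair the libraries, since the sources used here do not say that they do. Centred values of same-number pairs had a median correlation of 0.015 in the hippocampus and 0.029 in the frontal cortex. Over pairs of different numbers the medians were -0.011 and -0.036. Such values do not settle whether the numbers pair the libraries. Over 112 same-number pairs in each region, centred values correlated from -0.62 to 0.74 in the hippocampus and from -0.44 to 0.62 in the frontal cortex, with 39 and 48 pairs over 0.1, and over 32 pairs between the regions from -0.60 to 0.64, with 12 over 0.1. With the number as a replicate block, 8 members were called by phase in each region and 6 between the regions, and 4 in each region with the other 8 in the fit. The shares of all genes called with the block were not counted. Depth limits Gjb6 most.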
